A study of Mus musculus with 12 samples.

Results

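The data follow 10 genes of the NRF2 antioxidant response across 12 arrays of mouse liver. They were Nfe2l2, Keap1, Nqo1, Gclc, Gclm, Srxn1, Txnrd1, Hmox1, Gsr and Ugdh, and they were taken as every probe set that the array's annotation assigns to 1 of these symbols. That gave 20 probe sets for the 10 genes, out of 45101 probe sets in all, and all 10 genes were among the 13952 genes tested. The livers came from C57Bl/6J mice aged 3 months, and were taken 8 hours after an intraperitoneal injection. Control mice, titled Fe+CRE+, and mice with a conditional null allele of Ire1α, titled Fe-CRE+, each received either the vehicle (150 µM dextrose) or tunicamycin at 2 µg per g of body weight. Both genotypes were thus labelled CRE+, and the sources used here do not name the promoter that drives Cre. Tunicamycin blocks N-linked glycosylation and so provokes endoplasmic reticulum (ER) stress, and Ire1α, encoded by Ern1, is a membrane sensor of that stress whose RNase activates Xbp1. Each of the 4 groups held 3 arrays, labelled biological replicates. No label says from how many animals an RNA came, so p-values measure the spread between these samples.

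NRF2, the product of Nfe2l2, is a transcription factor that the adaptor KEAP1 marks for degradation under resting conditions. Electrophiles and oxidants disable KEAP1, after which NRF2 accumulates, pairs with small MAF proteins and binds antioxidant response elements in front of its targets. In liver these targets make and recycle glutathione, reduce quinones and peroxides, break down heme and supply glucuronic acid for conjugation of drugs and bilirubin. The ER stress kinase PERK and its effector ATF4 are known to act on part of the same genes.

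To show what lies in front of these genes, promoters of 300 bases (250 before and 50 after the start site) were taken from RefSeq on GRCm38.p6. Of the 10 genes 7 had 1 or more promoters in the table, 9 in all, and Gclc, Gsr and Hmox1 had none listed. The core of the antioxidant response element, TGACNNNGC on either strand, stood in 5 of the 9 promoters, 1 each of Nfe2l2, Gclm, Srxn1, Txnrd1 and Ugdh. Over all 32851 promoters of this length 12.4% held it, and Txnrd1 had 3 promoters listed. A core of the composite element bound by C/EBP and ATF factors, TGATGNAA on either strand, stood in 0 of the 9 promoters and in 3.97% of all. Of the 5 promoters that hold the core TGACNNNGC, 3 are printed. They are those of Srxn1 (chr2:152105274-152105573, plus strand), Gclm (chr3:122245307-122245606, plus strand) and Ugdh (chr5:65435793-65436092, minus strand). Srxn1 rose while Gclm and Ugdh fell with tunicamycin in control livers. Each runs 5′ to 3′ along the gene, with the antioxidant element core in capitals.
Srxn1: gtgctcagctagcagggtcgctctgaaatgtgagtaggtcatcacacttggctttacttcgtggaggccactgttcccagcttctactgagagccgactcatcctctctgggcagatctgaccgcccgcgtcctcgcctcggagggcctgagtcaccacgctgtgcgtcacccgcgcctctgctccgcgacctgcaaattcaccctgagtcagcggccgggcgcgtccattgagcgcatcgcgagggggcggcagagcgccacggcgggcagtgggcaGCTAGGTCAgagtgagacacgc
Gclm: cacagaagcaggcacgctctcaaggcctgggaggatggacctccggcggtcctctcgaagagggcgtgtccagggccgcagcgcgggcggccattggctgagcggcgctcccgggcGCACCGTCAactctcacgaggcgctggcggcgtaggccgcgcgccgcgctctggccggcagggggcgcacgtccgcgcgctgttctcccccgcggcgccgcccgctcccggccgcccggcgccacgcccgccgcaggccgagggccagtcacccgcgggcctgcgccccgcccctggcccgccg
Ugdh: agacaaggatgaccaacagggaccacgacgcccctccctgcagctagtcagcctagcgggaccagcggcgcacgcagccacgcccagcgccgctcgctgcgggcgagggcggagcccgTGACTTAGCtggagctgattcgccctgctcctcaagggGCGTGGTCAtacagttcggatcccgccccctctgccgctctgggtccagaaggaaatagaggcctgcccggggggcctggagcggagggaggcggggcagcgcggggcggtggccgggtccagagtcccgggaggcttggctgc
The core began 28 bases after the start in Srxn1 and 134 bases before it in Gclm, in both on the minus strand of the gene. Ugdh held 2 cores, 132 and 94 bases before the start. A match to these letters is a description of the sequence and was not measured as a binding site. Forms of the antioxidant element that differ from these letters were not searched and are not marked.

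Expression is given as log2 of intensity plus 16 after quantile normalization, and a change as a log2 difference ± its standard error (SE) from limma, from 3 arrays in each group. A gene was called when its Benjamini-Hochberg adjusted p in limma, taken over all genes, lay under 0.05. Trimmed mean intensities were 234 to 261 on control vehicle and 277 to 297 on control tunicamycin arrays. They were 228 to 255 on null vehicle and 240 to 303 on null tunicamycin arrays, where replicate 2 was the lowest. Brightness thus went with the treatment in control livers, and quantile normalization removes such differences. Arrays of 1 group correlated at 0.948 to 0.986. The 8 hepatocyte markers were bright on every array, with a summed level of 94434 to 99447. At that brightness quantile normalization leaves the sum little room to vary, so it shows liver RNA and does not exclude other tissue. Null tunicamycin replicate 2 stood apart: 8 of 11 tested kidney markers exceeded every other array by more than 1 log2 unit, and their summed level was 35512 against 916 to 2661 elsewhere. For results that rest on this array, the value without it or the range over alternative settings is given where stated. Control tunicamycin replicate 2 had a summed level of 4 neutrophil and monocyte markers of 10193, against 600 to 4311 on the other arrays. Nearly all of it was Lcn2, at a log2 value of 13.27, while S100a8 (7.28) and S100a9 (7.12) lay under their highest values elsewhere (7.45 and 7.20). The probe sets of the targeted gene, Ern1, did not separate the genotypes. The brightest of its 5 probe sets differed by -0.13 ± 0.24 with vehicle (adjusted p = 0.969) and by 0.10 ± 0.24 with tunicamycin (adjusted p = 0.934). The sources used here do not say which part of Ern1 is deleted, so these values check nothing about the deletion.

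The first question was how tunicamycin moved the pathway in control livers. It moved it in opposite directions: Srxn1 rose, while Nqo1, both subunits of glutamate-cysteine ligase (Gclc and Gclm), Gsr and Ugdh fell. Nfe2l2 itself, read by its brighter probe set, was also called lower among genes (adjusted p = 0.0464), but not in the fit over all probe sets (adjusted p = 0.0806), where its probe set 1457117_at was called higher. In all, 7 of the 10 genes were called, 1 higher and 6 lower, against 26.2% of all genes called. Over all genes 12.2% were called higher and 14% lower. The median difference of the 10 genes was -0.58, beside -0.11 for all genes tested. In 8 of the 10 genes the 2 groups of arrays did not overlap, 2 higher and 6 lower, against 43.7% of all genes.

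**Figure D1:**
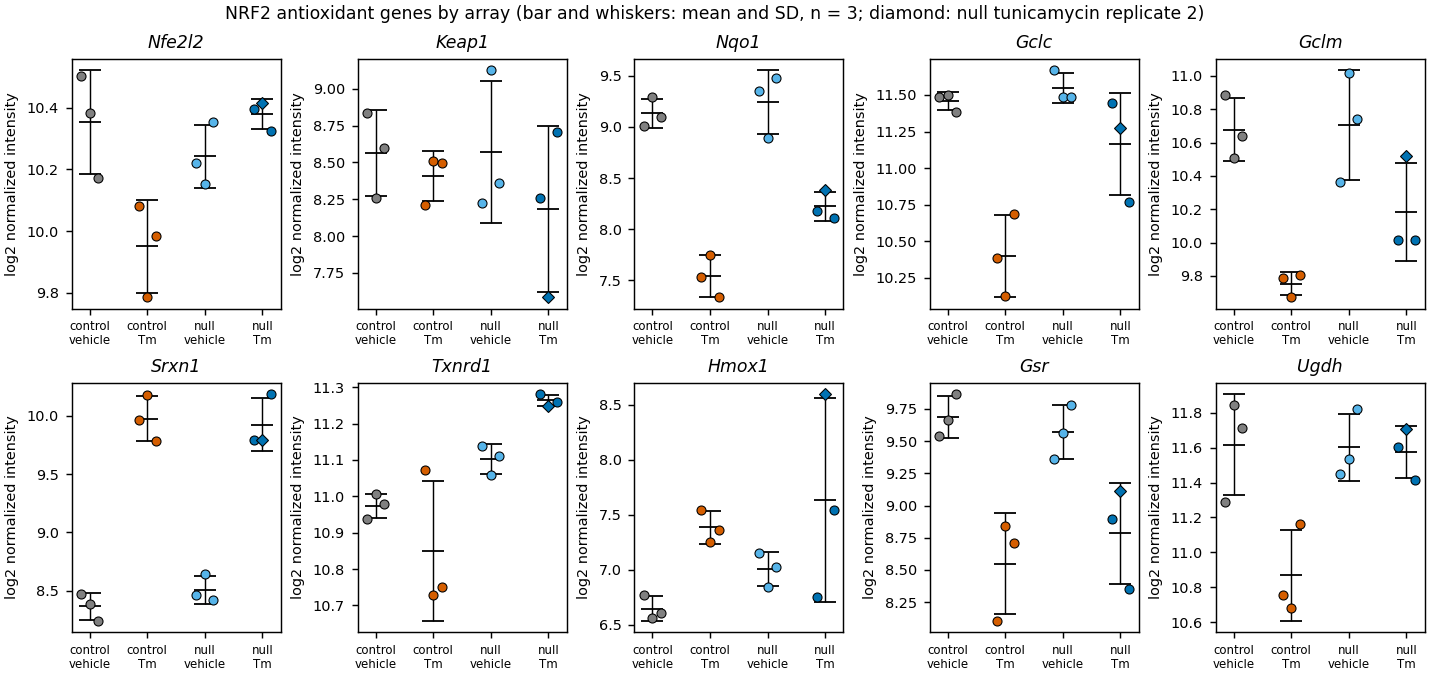
Log2 intensity of the 10 NRF2 genes on every array, with 1 panel per gene, points for single arrays and bars for the mean and SD (n = 3) of each of the 4 groups. The diamond marks null tunicamycin replicate 2. Each panel has its own vertical axis that does not start at 0. Srxn1 rises with tunicamycin in both genotypes, Nqo1 falls in both, and Ugdh is low only on the 3 control arrays with tunicamycin.

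Among the regulators, Nfe2l2 encodes NRF2. Its brighter probe set read 10.50, 10.38 and 10.17 on the control vehicle arrays and 10.08, 9.79 and 9.99 with tunicamycin. The 2 groups did not overlap, and the difference was -0.40 ± 0.14 (adjusted p = 0.0464). This call was narrow: it was lost under 17 of 23 alternative settings, 10 of them leaving out 1 array, and in a further one turned positive when probe sets were averaged. The reversal came from a second probe set of Nfe2l2, 1457117_at, which read 5.58, 6.42 and 5.98 with vehicle and 7.03, 6.89 and 6.93 with tunicamycin. In a fit over all 34945 probe sets with 1 symbol, where 14.7% were called, this dimmer probe set rose by 0.96 ± 0.26 (adjusted p = 0.0251) and the brighter one changed by -0.40 ± 0.14 (adjusted p = 0.0806). The direction of Nfe2l2 therefore depends on the probe set read. Keap1, the repressor, read 8.83, 8.26 and 8.60 with vehicle and 8.21, 8.51 and 8.50 with tunicamycin, so the groups overlapped. Its difference was -0.16 ± 0.29 (adjusted p = 0.737).

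Nqo1, which reduces quinones by a pair of electrons and is the most used readout of NRF2 activity, fell most. Its control vehicle arrays read 9.01, 9.29 and 9.10 and its control tunicamycin arrays 7.53, 7.75 and 7.34. Every treated array lay more than 1 log2 unit below every vehicle array. The difference was -1.59 ± 0.18 (adjusted p = 5.33e-05), a fall to 0.332 of the vehicle level.

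The glutathione genes fell together. Gclc, the catalytic subunit of the rate-limiting ligase, read 11.49, 11.50 and 11.39 with vehicle and 10.38, 10.13 and 10.68 with tunicamycin. This was a change of -1.06 ± 0.19 (adjusted p = 0.00139). Gclm, the modifier subunit of the same ligase, read 10.88, 10.51 and 10.64 with vehicle against 9.79, 9.67 and 9.80. It changed by -0.92 ± 0.19 (adjusted p = 0.00413). Gsr, glutathione reductase, which returns oxidised glutathione to its reduced form, read 9.54, 9.66 and 9.87 against 8.11, 8.84 and 8.71. Its change was -1.14 ± 0.23 (adjusted p = 0.00336). In none of these 3 genes did the treated and vehicle arrays overlap.

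The enzymes that repair peroxiredoxins and thioredoxin parted from that pattern. Srxn1, sulfiredoxin, which reactivates overoxidised peroxiredoxins, read 8.47, 8.39 and 8.24 with vehicle and 9.96, 10.17 and 9.78 with tunicamycin. All treated arrays lay more than 1 log2 unit above all vehicle arrays. It rose by 1.61 ± 0.16 (adjusted p = 1.94e-05), or 3.04-fold on this normalized scale. Its deposited linear intensity was 296 ± 53.2 (SD, n = 3) with vehicle and 1103 ± 158 (SD, n = 3) with tunicamycin. Txnrd1, cytosolic thioredoxin reductase, read 10.94, 11.01 and 10.98 with vehicle and 11.07, 10.73 and 10.75 with tunicamycin, and the groups overlapped. Its difference was -0.12 ± 0.13 (adjusted p = 0.512), and the uncalled differences of Keap1 and Txnrd1 turned positive under another scaling of the arrays.

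Hmox1, heme oxygenase 1, read 6.77, 6.56 and 6.61 on control vehicle arrays and 7.55, 7.25 and 7.36 on control tunicamycin arrays. The groups did not overlap, but the difference of 0.74 ± 0.34 did not pass the test (adjusted p = 0.131). Without null tunicamycin replicate 2, the array with kidney transcripts, the control difference was again 0.74, now ± 0.19 and called (adjusted p = 0.0134), as it was without null tunicamycin replicate 1 (0.73, adjusted p = 0.0383). Hmox1 is also made by liver macrophages, and in bulk liver fewer cells of a type and less RNA per cell cannot be told apart. The summed level of 12 Kupffer cell and macrophage markers was 10283 to 15272 with vehicle and 8873 to 11307 with tunicamycin. Of the 12, 1 was called lower, against 14% of all genes. The median difference of these markers was -0.48, beside -0.11 for all genes. Their part in the Hmox1 values was not tested.

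Ugdh, UDP-glucose dehydrogenase, makes UDP-glucuronic acid. It read 11.29, 11.85 and 11.72 with vehicle and 10.76, 10.68 and 11.16 with tunicamycin in control livers, with no overlap. The difference was -0.75 ± 0.19 (adjusted p = 0.0110). Without control tunicamycin replicate 2, the array high in Lcn2, it was -0.66 and no longer called (adjusted p = 0.0529).

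Of the RNA quality ratios, which fall with degradation, that of actin fell with the treatment and that of Gapdh did not. The 5' to 3' ratio of the Gapdh control probe sets was 0.528 ± 0.220 (SD, n = 3) on control vehicle and 0.556 ± 0.0289 (SD, n = 3) on control tunicamycin arrays. That of the actin control probe sets was 0.757 ± 0.323 (SD, n = 3) on control vehicle and 0.328 ± 0.0533 (SD, n = 3) on control tunicamycin arrays. With this ratio as a covariate 4 of the 10 genes were called, Srxn1 higher and Nqo1, Gclc and Gclm lower, while Gsr (-0.83, adjusted p = 0.101), Ugdh (-0.45, adjusted p = 0.245) and Nfe2l2 (-0.49, adjusted p = 0.119) were not. Scaling mattered too: with array medians centred in place of quantile normalization the median of all genes was -0.01. The split of all calls then was 2131 higher and 1191 lower, against 1707 and 1952, and 5 of the 10 genes were called, 1 higher and 4 lower.

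The same treatment in null livers gave 3 calls among the 10 genes, against 17.8% of all genes: Srxn1 rose, and Nqo1 and Gsr fell. The median of the 10 genes was -0.20, beside -0.07 for all genes. With array medians centred 2 of the 10 genes were called, and the split of all calls was 1285 higher and 709 lower against 1112 and 1367. The Gapdh ratio was 0.372 ± 0.241 (SD, n = 3) on null vehicle and 0.401 ± 0.0327 (SD, n = 3) on null tunicamycin arrays. The actin ratio was 0.500 ± 0.179 (SD, n = 3) on null vehicle and 0.309 ± 0.116 (SD, n = 3) on null tunicamycin arrays. With it as a covariate 2 of the 10 genes were called.

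Srxn1 read 8.46, 8.64 and 8.42 on null vehicle and 9.79, 9.79 and 10.19 on null tunicamycin arrays. It rose by 1.41 ± 0.16 (adjusted p = 0.000109), or 2.66-fold, again with no overlap. Lack of overlap alone says little with 3 arrays per group: in control livers 43.7% of all genes had it. The share of all genes in null livers is not given here. Nqo1 read 9.35, 8.89 and 9.48 against 8.18, 8.38 and 8.11. Its fall of -1.02 ± 0.18 (adjusted p = 0.00221) left 0.494 of the vehicle level. Gsr read 9.36, 9.56 and 9.78 against 8.89, 9.11 and 8.35, without overlap. It changed by -0.78 ± 0.23 (adjusted p = 0.0363), a call lost under 9 of the 23 alternative settings, among them leaving out any null vehicle array or null tunicamycin replicate 1 or 3.

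The ligase subunits did not pass the test in null livers. Gclc read 11.67, 11.49 and 11.49 with vehicle and 11.44, 11.27 and 10.77 with tunicamycin, and every treated array lay below every vehicle array. The difference was -0.38 ± 0.19 (adjusted p = 0.190). Gclm read 10.36, 11.01 and 10.74 against 10.02, 10.52 and 10.01, where the overlap came from the array with kidney transcripts, at 10.52. Its difference of -0.52 ± 0.19 (adjusted p = 0.0869) became -0.69 without that array and was called (adjusted p = 0.0311), as it was without null vehicle replicate 1 (-0.69, adjusted p = 0.0417).

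Ugdh and both regulators also stayed uncalled. Ugdh read 11.45, 11.54 and 11.82 with vehicle and 11.60, 11.71 and 11.42 with tunicamycin, and these groups overlapped. The difference was -0.03 ± 0.19 (adjusted p = 0.944) and it changed sign under another scaling. Nfe2l2 read 10.22, 10.15 and 10.35 against 10.40, 10.41 and 10.32 on its brighter probe set, a difference of 0.14 ± 0.14 (adjusted p = 0.543). Its dimmer probe set read 6.71, 5.99 and 6.63 with vehicle and 7.43 ± 0.37 (SD, n = 3) with tunicamycin, with no overlap, and rose by 0.98 ± 0.26 (adjusted p = 0.0336) in the fit over probe sets, where 8.61% were called. Both genotypes thus showed a call on the dimmer Nfe2l2 probe set. Keap1 read 8.23, 9.13 and 8.36 against 8.26, 7.58 and 8.71, overlapping groups with a difference of -0.39 ± 0.29 (adjusted p = 0.403). The lowest of these, 7.58, came from the array with kidney transcripts and lay below the other 11 arrays, whose lowest value was 8.21. Over the alternative settings the Keap1 difference ran from -0.65 to -0.09 and was never called.

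Txnrd1 read 11.14, 11.06 and 11.11 with vehicle and 11.28, 11.25 and 11.26 with tunicamycin in null livers. The groups did not overlap, yet the difference was small, 0.16 ± 0.13 (adjusted p = 0.421). Hmox1 read 7.15, 6.85 and 7.03 with vehicle and 6.75, 8.60 and 7.55 with tunicamycin. Its highest value, 8.60, was that of the array with kidney transcripts, and the other 11 arrays reached at most 7.55. The difference was 0.62 ± 0.34 (adjusted p = 0.237) with this array and 0.14 ± 0.22 (adjusted p = 0.700) without it. Without null tunicamycin replicate 1, the lowest array, it was 1.06 and called (adjusted p = 0.0189). The Kupffer cell marker sum was 7747 to 11669 with vehicle and 4804 to 10319 with tunicamycin. Of the 12 markers 2 were called lower, against 9.8% of all genes, and their median difference was -0.52, beside -0.07 for all genes.

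**Figure D2:**
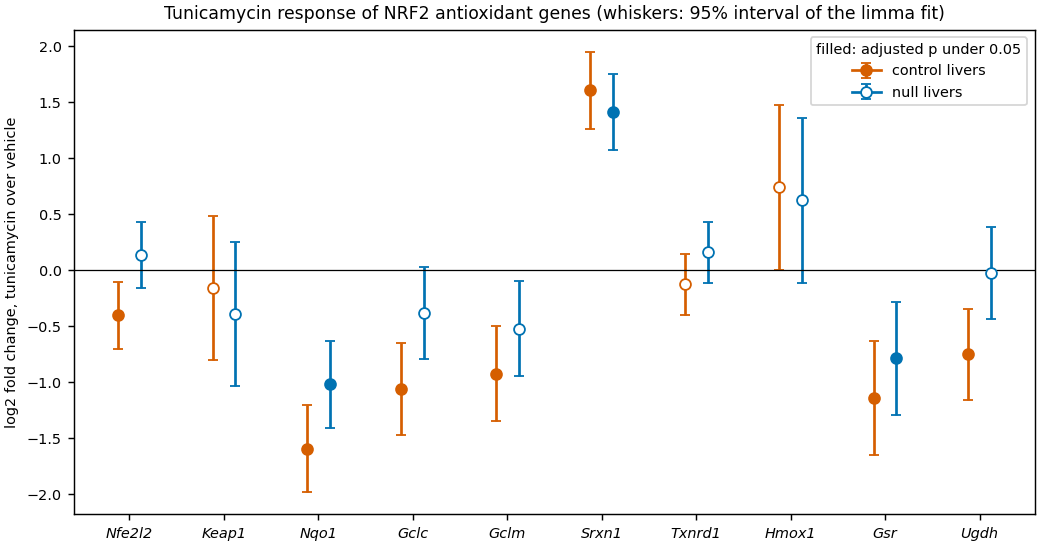
Log2 difference between tunicamycin and vehicle for the 10 genes in control and in null livers, with points for the limma estimate and bars for its 95% confidence interval, 3 arrays per group. Srxn1 lies at 1.61 and 1.41, Nqo1 at -1.59 and -1.02, and Ugdh at -0.75 and -0.03, in control and null livers in turn.

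Most genes were read by several probe sets, and these were compared in the fit over all probe sets. Of 4 Srxn1 probe sets 3 rose in both genotypes: 1451680_at by 1.22 in control and 1.08 in null livers, 1425351_at by 1.25 and 1.19, beside the representing 1426875_s_at. The fourth, 1419942_at, differed by 0.07 and 0.02 and was not called. Both Gclc probe sets fell in control livers, by -1.06 and -1.11, and neither was called in null livers. The second Gclm probe set, 1439050_at, fell in both genotypes, by -0.95 ± 0.16 (adjusted p = 0.00163) in control and by -0.81 ± 0.16 (adjusted p = 0.00810) in null livers, whereas the brighter one was called in control livers only. The second Gsr probe set, 1421816_at, differed by -1.20 ± 0.40 in control livers and was not called there (adjusted p = 0.0705). In null livers neither Gsr probe set was called in this fit, whose only 2 lower calls among these genes were Nqo1 and 1439050_at. Neither Keap1 probe set and none of the 3 Txnrd1 probe sets was called for tunicamycin in either genotype. One Txnrd1 probe set, 1424487_x_at, did not pass the filter on dim probe sets, and the other 19 did.

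**Figure D3:**
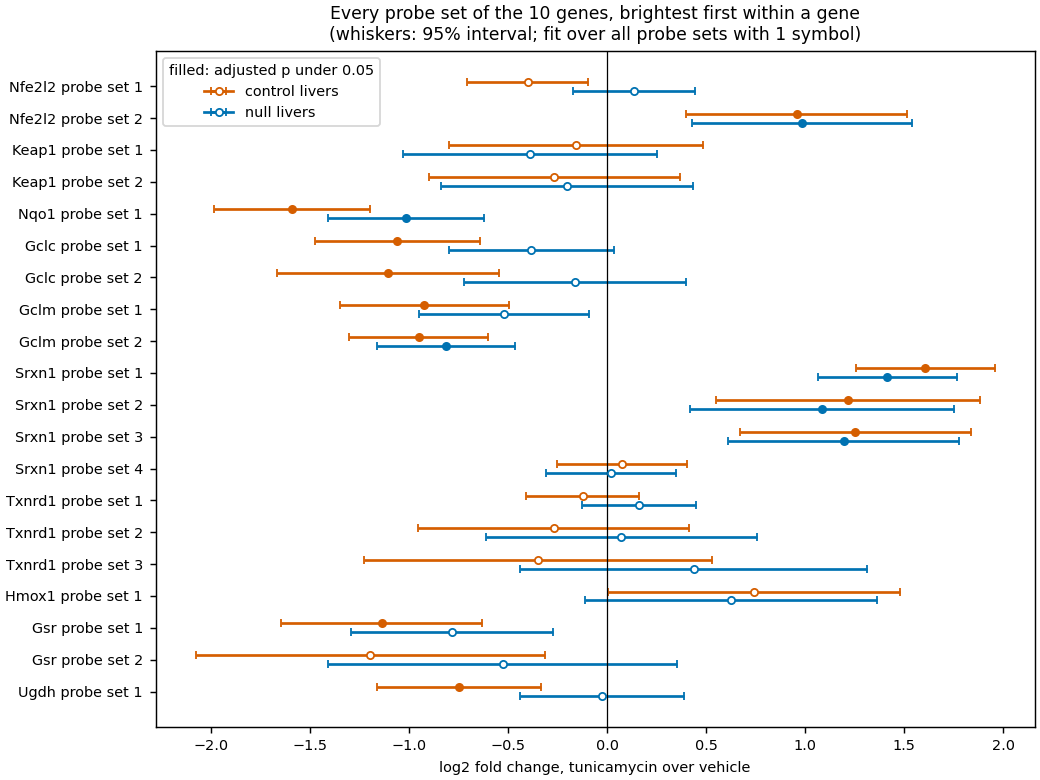
Log2 difference between tunicamycin and vehicle for each of the 20 probe sets of the 10 genes, in control and in null livers, from the limma fit over all probe sets with bars for the 95% confidence interval. The 2 probe sets of Nfe2l2 lie on opposite sides of 0 in control livers, at -0.40 and 0.96.

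Without stress the genotypes were compared to see whether the loss of Ire1α alone shifted these genes. None of the 10 was called by limma, as was none of the 13952 genes (0%). At an unadjusted p under 0.05 there were 0 of the 10 genes and 580 genes in all, or 4.16%. The differences, null minus control, ran from -0.12 for Gsr to 0.36 for Hmox1. Txnrd1 and Hmox1 were higher on all null than on all control vehicle arrays, with differences of 0.13 ± 0.13 and 0.36 ± 0.34, and 3.74% of all genes were higher without overlap. Nqo1 differed by 0.11 (95% confidence interval -0.28 to 0.49), and the interval of each of the 10 genes included 0.

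With tunicamycin, null and control livers were set against each other on the same arrays as above, so the values repeat part of those comparisons. Gclc was the only one of the 10 genes called, and it was higher in null livers. Over all genes 4.33% were called, and 0.853% were called higher in null livers. Gclc differed by 0.76 ± 0.19 (adjusted p = 0.0425), or 1.70-fold. That call was lost under 18 of 23 alternative settings, among them leaving out the array with kidney transcripts (0.70, adjusted p = 0.101) or the array high in Lcn2 (0.63, adjusted p = 0.205). In all, 10 of the 12 arrays ended it when left out. RNA quality by Gapdh also differed here: the ratio was 0.523 to 0.577 on control and 0.370 to 0.435 on null tunicamycin arrays. With the Gapdh ratio as a covariate Gclc differed by 0.74 and was not called (adjusted p = 0.0940).

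All 3 null tunicamycin arrays stood above all 3 control ones in 6 of the 10 genes, against 10.5% of all genes higher without overlap. They were Nfe2l2, Nqo1, Gclc, Gclm, Txnrd1 and Ugdh. For Nqo1 the null arrays lay at 8.11 to 8.38 and the control arrays at 7.34 to 7.75, a difference of 0.68 ± 0.18 (adjusted p = 0.0525). Ugdh lay at 11.42 to 11.71 against 10.68 to 11.16 and differed by 0.71 ± 0.19 (adjusted p = 0.0570). Leaving out 1 array could also add a call: Nqo1 without null vehicle replicate 2 (0.68, adjusted p = 0.0292), and Ugdh without control vehicle replicate 1 (0.71, adjusted p = 0.0382) or control tunicamycin replicate 3 (0.86, adjusted p = 0.0402). Gclm (0.43 ± 0.19, adjusted p = 0.302), Nfe2l2 (0.43 ± 0.14, adjusted p = 0.121) and Txnrd1 (0.41 ± 0.13, adjusted p = 0.102) differed less. The Gclm difference rests in part on the array with kidney transcripts, at 10.52, where the other null tunicamycin arrays read 10.01 and 10.02. Over the alternative settings it was 0.26 at its lowest.

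For the other 4 genes the genotypes overlapped under tunicamycin. Srxn1 differed by -0.05, with a 95% confidence interval of -0.39 to 0.29. Gsr differed by 0.23 ± 0.23, Hmox1 by 0.25 ± 0.34 and Keap1 by -0.23 ± 0.29. Gsr read 9.11 on the array with kidney transcripts and 8.35 to 8.89 on the other null tunicamycin arrays. Over the alternative settings the Gsr difference ran from 0.01 to 0.45. Without the array with kidney transcripts Hmox1 differed by -0.24, Keap1 by 0.07 and Srxn1 by 0.01. The median difference of the 10 genes was 0.42, beside 0.02 for all genes. That of the 12 Kupffer cell and macrophage markers was -0.65, with 0 called, and their part in these values was not tested. In the fit over all probe sets 2.28% were called and 0 of the 20 probe sets of these genes were.

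**Figure D4:**
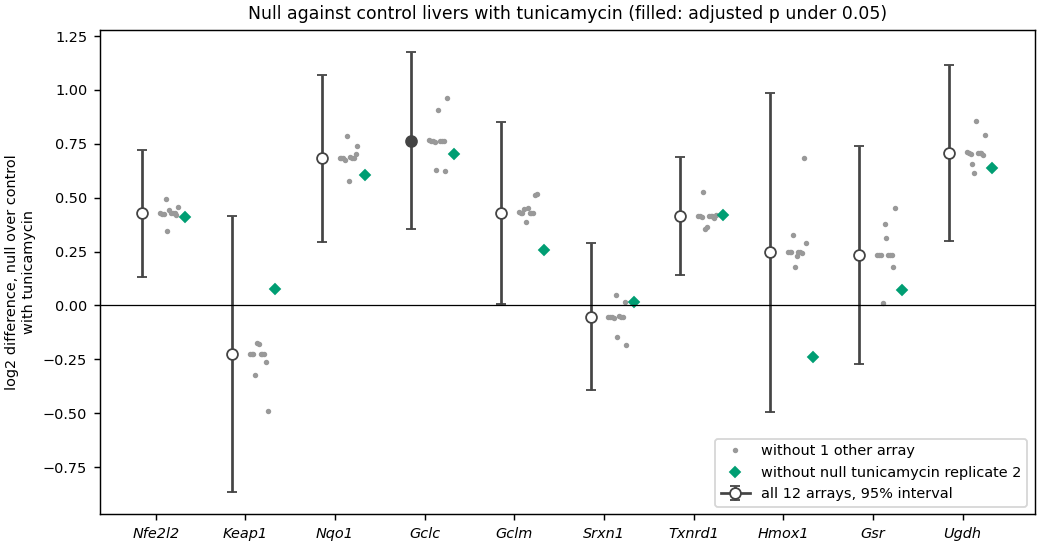
Log2 difference between null and control livers with tunicamycin for the 10 genes, as limma estimates with 95% confidence intervals from 12 arrays, beside small points for the estimates with 1 array left out and a diamond for those without null tunicamycin replicate 2. Gclc, Ugdh and Nqo1 lie at 0.76, 0.71 and 0.68, and Srxn1 at -0.05.

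Whether the response itself differed between genotypes was tested as the interaction, the null response minus the control response. None of the 10 genes was called by limma, against 0.889% of all genes. At an unadjusted p under 0.05 there were 4 of the 10 genes, against 8.48% of all genes: Ugdh (0.72 ± 0.26, adjusted p = 0.383), Gclc (0.68 ± 0.27, adjusted p = 0.450), Nqo1 (0.57 ± 0.25, adjusted p = 0.542) and Nfe2l2 (0.54 ± 0.19, adjusted p = 0.360). That Gclc, Gclm, Ugdh and Nfe2l2 were called in control and not in null livers is therefore not shown to be a difference between the genotypes. For Srxn1 the interaction was -0.19 (95% confidence interval -0.67 to 0.29).

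The genes whose pattern over the 12 arrays was most like that of a called gene were found by Pearson's r, given as a description over arrays that share their treatment groups. Srxn1 was followed most closely by Sel1l (r = 0.987), Ecd (0.985) and Atp2a2 (0.985). Nqo1 was followed by Slc44a1 (0.981), Memo1 (0.977) and Dixdc1 (0.976), Gclc by Fmo1 (0.961) and Gclm by Atp5o (0.962). For Gsr the closest was Snx4 (0.969), for Nfe2l2 Zfp24 (0.939) and for Ugdh Crebrf (0.922).

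The wider pathway was read from 107 other genes in 9 lists, of which 89 were tested. In control livers 38 of the 89 were called, 9 higher and 29 lower (42.7%, against 26.2% of all genes). In null livers 28 were called, 9 higher and 19 lower (31.5%, against 17.8%, with 7.97% of all genes called higher and 9.8% lower). The median differences were -0.25 and -0.18, beside -0.11 and -0.07 for all genes. The control count was 24 of 89 when the actin ratio entered the model, with 9 higher and 15 lower. Over all genes the calls then fell as well, from 3659 to 1827 of 13952.

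Regulators of NRF2 moved both ways. Of 13 tested, 5 rose and 1 fell in control livers, and 3 rose and 1 fell in null livers. Over all genes 12.2% were called higher and 14% lower in control livers, and 7.97% and 9.8% in null livers. The small MAF proteins are the partners of NRF2 on DNA, and of these Mafk rose by 1.30 in control and 1.20 in null livers while Mafg fell by 1.09 and 0.88, the latter not called on the values as deposited (-0.63). Sqstm1, whose product p62 draws KEAP1 into autophagy, rose by 1.21 and 1.52. Sesn2, a sestrin also known as an ATF4 target, rose by 1.57 and 2.37 and was higher in null than control livers under tunicamycin (1.05 ± 0.21, adjusted p = 0.0148). That call was lost with the mean of probe sets (0.62, adjusted p = 0.0703) and without control tunicamycin replicate 2 (0.97) or 3 (0.91) or null tunicamycin replicate 3 (0.96). Dpp3, a peptidase that binds KEAP1, was lower in null than control livers under tunicamycin (-0.88 ± 0.13, adjusted p = 0.00204), but not with the mean of probe sets (-0.43, adjusted p = 0.174).

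In glutathione synthesis and turnover 2 of 9 genes were called in control livers, near the 26.2% of all genes. In null livers 3 of 9 were, against 17.8% of all genes. Chac1, a glutathione-degrading enzyme and known ATF4 target, rose by 3.98 in control and 2.61 in null livers. Glrx, glutaredoxin, fell by 1.71 and 1.49. Gpx3, a secreted glutathione peroxidase that kidney makes in quantity, differed by 3.13 ± 0.91 in null livers and by 1.63 without the array with kidney transcripts (adjusted p = 0.00249). Its call thus held without that array, but was lost without any 1 of the null vehicle arrays (3.05 to 3.18). Of the 18 glutathione S-transferases, which conjugate electrophiles to glutathione, 6 fell and 0 rose in control livers, where 14% of all genes were called lower. In null livers 2 fell and 0 rose, a share near the 9.8% of all genes called lower there. Gsta4 fell by 1.51 and 0.82 and Gstk1 by 0.87 and 0.72, in control and null livers in turn. The null call of Gsta4 was lost under 8 of 23 settings (-0.58 on the values as deposited, and without null vehicle replicate 1 or 3 or null tunicamycin replicate 1 or 3), and that of Gstk1 under both other scalings (-0.58 and -0.51).

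Among 10 thioredoxin and peroxiredoxin genes 4 fell and 0 rose in control livers, and 4 fell and 1 rose in null livers. For these and the NADPH genes below, the shares of all genes called lower were 14% in control and 9.8% in null livers. Txn1, thioredoxin itself, fell by 0.77 and 0.85, and the sestrins Sesn1 (-1.08 and -1.16) and Sesn3 (-1.18 and -1.17) fell in both genotypes. The Sesn1 call was lost with the actin ratio in control livers (-0.93), and in null livers under both other scalings (-0.49 and -0.41) and without null vehicle replicate 3 (-0.51) or null tunicamycin replicate 1 (-0.59). Txnip, which inhibits thioredoxin, rose in null livers by 1.35. Prdx4, a peroxiredoxin of the ER, was lower in null than control livers under tunicamycin (-0.68 ± 0.14, adjusted p = 0.0183), a call lost without control tunicamycin replicate 1 or 2 or null tunicamycin replicate 1 or 3 (-0.70 to -0.64, adjusted p = 0.0565 to 0.0996). Of 6 genes of NADPH supply 3 fell in control and 2 in null livers, with H6pd, the ER form of the first pentose phosphate step, falling by 0.56 and 0.51. Its calls were lost under 3 of 23 settings in control and 7 of 23 in null livers, both other scalings and the actin ratio among them (-0.35 and -0.29 on the values as deposited), and in null livers without any vehicle array or without tunicamycin replicate 1.

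For heme and iron, 1 of 8 genes rose and 3 fell in control livers, and 1 rose and 4 fell in null livers. Beside this and the next lists, 12.2% of all genes were called higher and 14% lower in control livers. In null livers these shares were 7.97% and 9.8%. Alas1, the first enzyme of heme synthesis, fell by 1.51 and 1.57, the iron exporter Slc40a1 by 1.38 and 0.96, and Hmox2, the constitutive heme oxygenase, rose by 0.77 and 0.86. The summed level of the 2 erythroid markers tested, of 5 listed, was 672 to 1019 and 362 to 539 in control livers, and 963 to 1208 and 360 to 634 in null livers, with vehicle and tunicamycin in turn. Of the 2, Alas2, the erythroid form of the enzyme, fell by 0.82 (adjusted p = 0.0457) and 1.33 (adjusted p = 0.00646), and Slc4a1 was not called in either genotype. The part of erythroid cells, or of the macrophages whose marker sums are given beside Hmox1, was not tested. Of 10 genes of glucuronidation and export 1 rose and 5 fell in control livers, and 1 rose and 3 fell in null livers. The exporter Abcc4 rose by 1.85 and 2.39 while the glucuronosyltransferase Ugt2a3 fell by 1.19 and 1.35. The fall of Ugt2a3 in control livers was not called with the actin ratio (adjusted p = 0.0528). Of 11 further targets 1 rose and 5 fell in control livers, and 1 rose and 2 fell in null livers. Trib3, a pseudokinase also known as an ATF4 and CHOP target, rose by 4.29 and 3.93, and the quinone reductase Nqo2 fell by 1.48 and 1.21. Of 4 superoxide and peroxide enzymes only Sod2, the mitochondrial superoxide dismutase, was called, falling by 0.45 in control livers. This 1 call of 4 was near the 26.2% of all genes called there. That call was lost under 6 of 23 settings, among them both other scalings (-0.28 and -0.26), the actin ratio (adjusted p = 0.134), and leaving out control vehicle replicate 2 (-0.36) or control tunicamycin replicate 1 (-0.44) or 3 (-0.41).

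**Figure D5:**
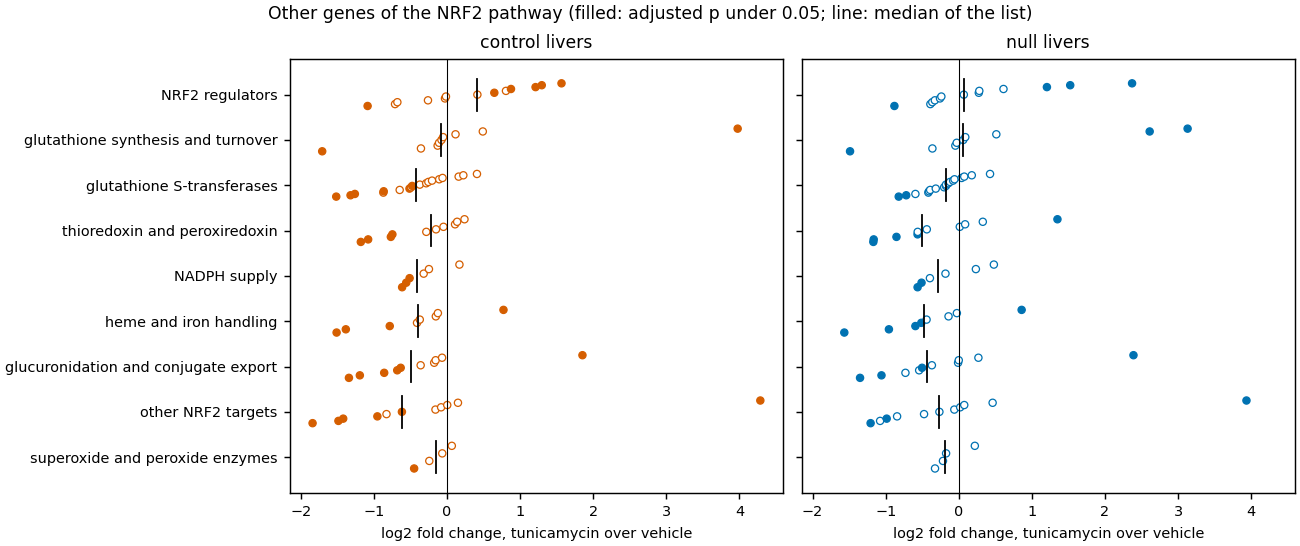
Log2 difference between tunicamycin and vehicle for the tested genes of each of the 9 lists, in control and in null livers, with 1 point per gene and called genes filled. The vertical line is the median of a list. Trib3 (4.29) and Chac1 (3.98) lie highest in control livers and Trib3 (3.93) and Gpx3 (3.13) in null livers, where Gpx3 without the array with kidney transcripts is at 1.63, below Chac1 (2.61), and the glutathione S-transferases hold called genes only below 0.

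Between the genotypes 0 of the 89 pathway genes were called by limma without stress, with 2 at an unadjusted p under 0.05, beside 4.16% of all genes. With tunicamycin 3 were called, Sesn2 higher and Dpp3 and Prdx4 lower in null livers, or 3.37%, beside 4.33% of all genes, and 22 of 89 had an unadjusted p under 0.05, beside 16.1%. The interaction called 1 of 89, Dpp3, or 1.12%, beside 0.889% of all genes, and 7 of 89 had an unadjusted p under 0.05, beside 8.48%.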

How the data were processed

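Total RNA (6 µg per array) was labelled by the Affymetrix protocol, per the labels. The authors deposited 1 linear intensity for each probe set, and the sources used here do not give their summary algorithm or scaling. The intensity plus 16 was taken to log2 and quantile normalized (limma 3.58.1, R 4.3.3, package data.table, version 1.17.8). Of 45101 probe sets 64 controls were left out, and 34945 had 1 symbol in the platform's annotation, 932 several and 9160 none. A look-up of 34741 gene IDs changed 0 symbols. Then the dimmest 30% were left out, and the probe set with the highest mean stood for a gene. Group means were fitted over 12 arrays (8 residual degrees of freedom) and 5 contrasts tested with lmFit and eBayes. The limma fit was tried on simulated normalized gene values, with changes added on the control tunicamycin arrays and read in the control contrast only. Normalization, probe set choice and the other contrasts were not tested in this way. The members and lists were chosen with earlier results of these data known. Pathway genes named are, in each contrast, up to 4 called members of a list by smallest p, or 2 where none is called, usable in any contrast, and the 10 members are given whether or not called. Alternatives were other pseudocounts, filters, scalings and probe set rules, the replicate block, RNA quality covariates and leaving out each array. Marker lists of 10 cell types and organs were read beside the results. Figures used matplotlib 3.10.9 in Python 3.11.15.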

Additional observations from a re-analysis of the deposited data

Results flagged for a closer look

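Dpp3, which encodes a peptidase that binds KEAP1, was called for the interaction, at -1.04 ± 0.18 (limma, adjusted p = 0.0236). It is listed because it was the 1 call among the 89 pathway genes. That is 1.12%, near the 0.889% of all genes called. Its control arrays read 9.12, 9.22 and 9.37 with vehicle and 9.85, 9.97 and 9.84 with tunicamycin, a rise of 0.65 ± 0.13 (adjusted p = 0.00294). Its null arrays read 9.43, 9.28 and 9.46 with vehicle and 9.08, 8.85 and 9.07 with tunicamycin, a difference of -0.39 ± 0.13 that was not called (adjusted p = 0.0572). The groups did not overlap in either genotype, which in control livers was so for 43.7% of all genes. The interaction was no longer called under 10 of 23 alternative settings, among them the mean of probe sets, where it was -0.55, and leaving out control vehicle replicate 1 or 2, control tunicamycin replicate 1 or 2, null vehicle replicate 1 or 3, or null tunicamycin replicate 1 (-1.08 to -0.98). With the mean of probe sets the difference between the genotypes under tunicamycin was -0.43 and not called (adjusted p = 0.174).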

How the results depend on the processing

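Each result was recomputed under 23 settings, 12 of which left out 1 array. A sign change was counted as a reversal only where the value was called. In control livers 7 of the 10 genes were called, 5 to 8 when an array was left out, and 4 when the actin ratio entered the model, where all genes called fell from 3659 to 1827. In null livers the count was 3, and 2 to 4 without an array. For null against control with tunicamycin the count of 1 became 0 with a pseudocount of 1, with no filter on dim probe sets, with array medians centred, without _x_at and _s_at probe sets and when the Gapdh ratio entered the model. It became 3 with a pseudocount of 64 or the lowest 50% left out, and 2 with the mean of probe sets or the actin ratio. Without an array it ran from 0 to 2, and all genes called there fell from 604 to 352, 284 and 349 without control tunicamycin replicates 1 and 2 and null tunicamycin replicate 1. The interaction over all genes, 124 calls, ran from 20 without control tunicamycin replicate 2 to 190 with a pseudocount of 64. Nfe2l2 in control livers was 0.28 with the mean of probe sets (adjusted p = 0.228), the only reversal among the 10 genes. Deviations of 18 same-numbered pairs of arrays correlated at -0.42 to 0.50 (median -0.05), and 6 exceeded 0.1. Those of 36 pairs with different numbers correlated at -0.47 to 0.38 (median -0.01), and 8 exceeded 0.1. Whether the replicate numbers pair the samples was not tested. With the replicate block the counts were 6 and 3 for tunicamycin in control and null livers and 0 for null against control with tunicamycin, and over all genes 1 was called without stress and 60 for the interaction. The cause of these shifts was not tested. The 3 arrays per group limit the precision, and dim probe sets such as 1457117_at lie nearer to background.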
